A study of Mus musculus with 4 samples.

Results

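Transcripts of the pentose phosphate pathway enzymes were followed in hematopoietic stem cells sorted from mouse bone marrow by the gate Lin-, Sca-1+, c-Kit+, CD48-, CD150+, with and without loss of Ddx21, a nucleolar RNA helicase of the DEAD box family. The set holds 7 enzymes by name: G6pdx, Pgls and Pgd of the oxidative branch, and Rpia, Rpe, Tkt and Taldo1 of the non-oxidative branch. Of these, 6 had values among the 12390 genes of the table, and all 6 were tested among 11742 genes. Rpia, the isomerase that turns ribulose 5-phosphate into ribose 5-phosphate, had no expression value analysed here. Rpe was chosen by its measured RPKM, which was lower in the knockout libraries, so its difference is given as a description with no test. The other enzymes belong to the set as textbook members of the pathway.

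The 2 control libraries came from Ddx21 fl/fl mice, which the labels also call WT. The 2 knockout libraries came from Ddx21 fl/fl mice that also carry CAG-CreERT2. This Cre recombinase is driven by the CAG promoter, which is active in most tissues, and works only when tamoxifen or a related ligand is present. Both groups carry the floxed alleles, and only the knockout group carries Cre, so the presence of Cre and the loss of Ddx21 cannot be told apart by design. No source used here gives age, sex, tamoxifen dosing or the time after it. Nor do the labels say that the libraries came from separate animals. The p-values rest only on spread between these 4 samples, on the deposited values pooled over genes of like level. That spread may be technical.

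The pathway branches from glycolysis at glucose 6-phosphate. Its oxidative branch oxidises that sugar to ribulose 5-phosphate and charges NADPH, the reducing agent that keeps glutathione and thioredoxin reduced and feeds fatty acid synthesis, deoxynucleotide synthesis and the oxidative burst of phagocytes. Its non-oxidative branch interconverts sugar phosphates reversibly, which yields ribose 5-phosphate for nucleotides or returns carbon to glycolysis. Myeloid cells of the bone marrow carry high activity of the pathway, and stem cells rely on NADPH to hold reactive oxygen in check.

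The libraries held between 43198649 and 62853208 reads as recovered from the values. Values are RPKM, reads scaled by transcript length and library size, as the authors deposited them, and errors beside them are SDs with n = 2 per group. Ddx21 stood at 11.0 and 12.1 RPKM in control replicates 1 and 2 and at 6.20 and 6.60 RPKM in knockout replicates 1 and 2, lower in both (log2 fold change -0.76, SE 0.30) but not past the threshold in limma (adjusted p = 0.158). Fold changes are knockout minus control on the log2(RPKM + 1) scale, which understates the change of low genes, and limma's p-values were adjusted by Benjamini and Hochberg's method over all tested genes. At an adjusted p under 0.05 limma called 391 genes higher, 3.33% of those tested, and 101 lower, 0.86%. Over all tested genes the fold changes had a median of 0.31, so a gene at 0 lay below most others. After TMM-type rescaling of the libraries, which brought that median to 0.00, limma called 0 genes in either direction, and 917 were higher and 910 lower before adjustment, at a p under 0.05. Voom, run on the rescaled reads, found 36 higher and 13 lower. With the replicate number as a block beside the rescaling, the calls were 312 higher and 370 lower. The gate's own markers were present, with Ly6a, which encodes Sca-1, between 83.2 and 165 RPKM, Kit between 44.0 and 64.5 RPKM and Slamf1, which encodes CD150, between 3.85 and 10.3 RPKM. Myeloid granule transcripts were far more abundant, with Elane, neutrophil elastase, between 9267 and 19798 RPKM, so the values cannot be assigned to stem cells alone, and fewer cells of a type and less RNA per cell cannot be told apart.

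Beside Rpe, at -0.97 by its choice, the 5 other measured enzymes all had negative log2 fold changes in the knockout libraries, from -0.07 for Pgls to -0.48 for Pgd, where 16.9% of all tested genes had a negative value. These 5 are abundant, with means above those of 90.1% (Pgls) to 98.4% (Tkt) of tested genes. The shares of all tested genes given here cover every level, and whether other genes as abundant moved alike was not tested. The knockout libraries lay below both control libraries without overlap for 3 of these 5, namely G6pdx, Pgd and Tkt, beside 7.38% of all tested genes, and above them for 0 of the 5, beside 55.5%. Of the 5, limma called 0 lower and 0 higher, although Pgd and Tkt were lower before adjustment, at a p under 0.05. At that unadjusted p limma had 288 genes lower and 1620 higher among all 11742 tested. On reads that were not rescaled voom called 1 of the 5 enzymes, Pgd, where it called 367 genes higher and 89 lower over all genes. The median log2 fold change of the 5 enzymes was -0.21, beside 0.31 for all tested genes. After rescaling it was -0.58 beside 0.00, all 5 values stayed negative where 50.4% of all genes did, and 4 of the 5 lay lower without overlap, beside 27.9% of all genes lower and 26.7% higher. Under quantile normalization the 5 values were nearer 0 than after rescaling, from -0.04 for Taldo1 to -0.48 for Pgd, beside a median of 0.01 for all tested genes.

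**Figure D1:**
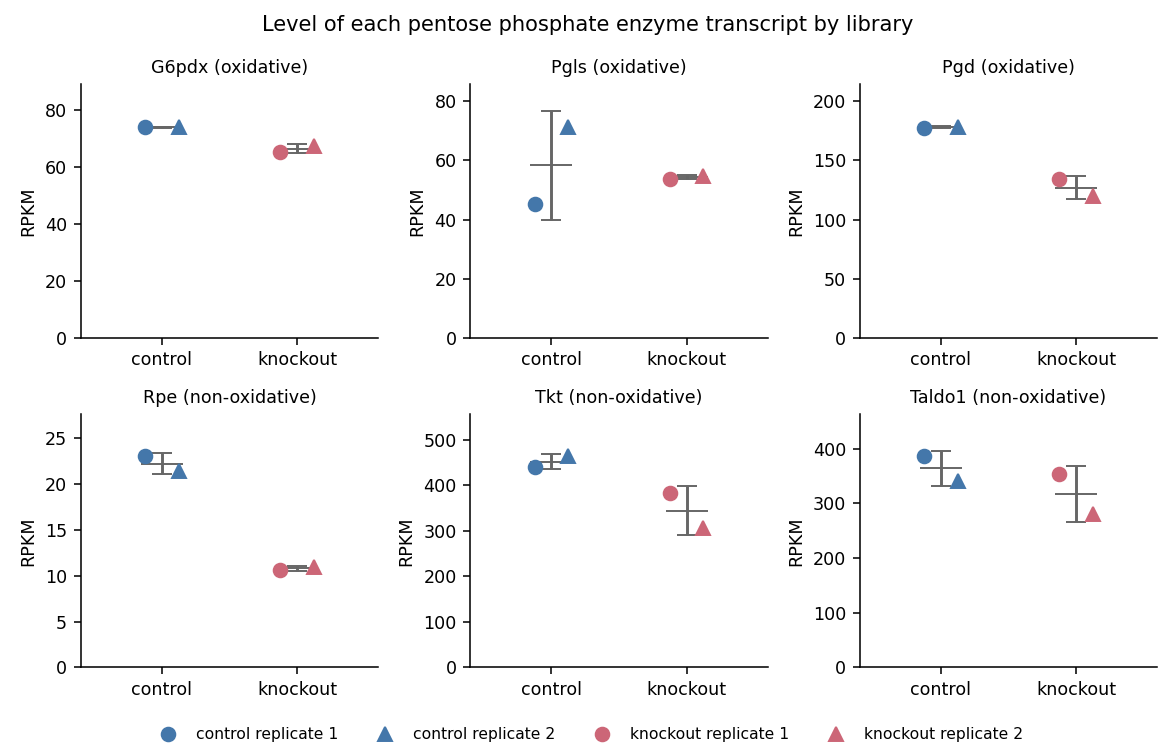
RPKM of each measured enzyme (vertical axes, linear, each starting at 0) in the control and knockout libraries, where circles are replicate 1, triangles replicate 2, and grey bars the group mean with SD (n = 2). Relative to its level Rpe shows the widest gap between groups of the 6, from 22.2 to 10.8 RPKM, and the control libraries differ most for Pgls.

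The 6 measured enzymes together took a smaller part of the knockout libraries. Their sum includes Rpe, chosen for its fall, with 3510 of 166481 reads in control replicate 1. Tkt alone gave 79522 of those reads, and 43100 of 94329 in knockout replicate 2. Reads of the 6 enzymes made up 0.299% of recovered reads in control replicate 1 (95% Wilson interval 0.297% to 0.300%) and 0.307% in control replicate 2 (0.306% to 0.308%). They made up 0.257% in knockout replicate 1 (0.255% to 0.258%) and 0.218% in knockout replicate 2 (0.217% to 0.220%). These intervals cover counting error only, since reads without molecular identifiers are not independent molecules. The 2 control libraries lay close together, and knockout replicate 2 was the lowest of the 4.

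Levels per length spanned a wide range among the enzymes. In the control libraries Tkt was the highest at 452 ± 16.4 RPKM, followed by Taldo1 at 364 ± 31.2 RPKM, Pgd at 178 ± 0.812 RPKM, G6pdx at 73.9 ± 0.190 RPKM, Pgls at 58.3 ± 18.5 RPKM and Rpe at 22.2 ± 1.14 RPKM. By its mean over the 4 libraries Tkt ranked 187 and Taldo1 221 of the 11742 tested genes, while Rpe ranked 3282. The order was the same in the knockout libraries, although Tkt and Taldo1 overlapped there and did not in the control libraries. G6pdx lay above Pgls in each of the 4 libraries, by 2.34 RPKM or more.

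The lengths behind these levels differ in kind. The values come out as whole reads when the length is that of the longest annotated transcript, which for Pgd is a retained-intron transcript of 3644 bases and for Pgls one of 2688 bases. The longest protein-coding transcripts have 2218 and 1062 bases. Divided by those, the control mean would be 292 RPKM for Pgd and 148 RPKM for Pgls, which would place Pgls above G6pdx. Fold changes of a gene do not depend on this length apart from the added 1 RPKM.

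The oxidative branch opens with G6pdx, glucose-6-phosphate dehydrogenase, which commits glucose to the pathway and makes its first NADPH (ENSMUSG00000031400, chromosome X, 74409483 to 74429194, minus strand, GENCODE M21 on mm10). It stood at 74.0 and 73.7 RPKM in control replicates 1 and 2 and at 65.2 and 67.3 RPKM in knockout replicates 1 and 2. Both knockout libraries lay below both controls, by a small margin. The log2 fold change was -0.15 (SE 0.19, adjusted p = 0.582), and after rescaling -0.52 (adjusted p = 0.282). The gene lies inside the span of Ikbkg, on the opposite strand, whose own level was between 2.93 and 6.02 RPKM. Its retrogene G6pd2 on chromosome 5 is 93.2% identical over 2332 bases, and no source used here says how the authors counted reads that match both.

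Pgls, 6-phosphogluconolactonase, hydrolyses the lactone that G6pdx makes (ENSMUSG00000031807, chromosome 8, 71592176 to 71601092, plus strand). Its RPKM was 45.2 and 71.4 for the controls and 53.8 and 54.7 for the knockouts. Both knockout values lay between the 2 control values, so the groups overlapped. The gene shares 3445 bases of its span with Fam129c on the same strand, and the level of Fam129c was not analysed here. The log2 fold change was -0.07 (SE 0.19, adjusted p = 0.815), and it turned to 0.26 without control replicate 2.

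Pgd, 6-phosphogluconate dehydrogenase, makes the second NADPH and releases ribulose 5-phosphate (ENSMUSG00000028961, chromosome 4, 149149991 to 149166771, minus strand). Its level was 177 and 178 RPKM for the controls, 134 RPKM for knockout replicate 1 and 120 RPKM for knockout replicate 2. The control libraries nearly coincided, and both knockout libraries were lower, with a mean 28.6% below that of the controls. The log2 fold change of -0.48 (SE 0.17) was not past the threshold in limma (adjusted p = 0.0859). Without knockout replicate 1, in a fit with 1 library in that group, the log2 fold change was -0.57. With voom on reads that were not rescaled Pgd was past the threshold (adjusted p = 0.0334). The adjusted p ranged from 0.0165 to 0.957 over 14 alternatives, all with a negative fold change. Inside each library, the ratio of Pgd to G6pdx was 2.40 and 2.42 for the controls and 2.06 and 1.78 for the knockouts, a comparison that no scaling of whole libraries can move.

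The non-oxidative branch starts from ribulose 5-phosphate, which Rpe, ribulose-5-phosphate 3-epimerase, turns into xylulose 5-phosphate, the substrate of transketolase (ENSMUSG00000026005, chromosome 1, 66700831 to 66719805, plus strand). Rpe was at 23.0 and 21.4 RPKM for the controls and 10.6 and 11.0 RPKM for the knockouts. These values rest on 3510 and 3680 recovered reads for the controls and 1261 and 1305 for the knockouts. The knockout libraries lay close together, well below both controls, with a mean 51.3% lower. The log2 fold change was -0.97 on the deposited values, with 0.273% of tested genes lower still, and -1.32 after rescaling. Over the 14 alternatives it stayed between -1.43 and -0.92.

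Ratios inside each library set Rpe against every other measured enzyme of the pathway, and they were lower in the knockout libraries. The choice of Rpe for its fall favours such ratios, so they describe the values and test nothing. For each 100 RPKM of G6pdx there were 31.1 and 29.0 RPKM of Rpe in the control libraries and 16.3 in both knockout libraries. Against Tkt the figures were 5.22 and 4.61 RPKM for the controls and 2.78 and 3.58 RPKM for the knockouts. Against Taldo1 they were 5.96 and 6.26 RPKM, then 3.01 and 3.92 RPKM. Against Pgd, the enzyme just before it, they were 13.0 and 12.0 RPKM, then 7.92 and 9.16 RPKM. The groups did not overlap in any of these ratios, which show unequal change between enzymes and not that any of them held still.

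**Figure D2:**
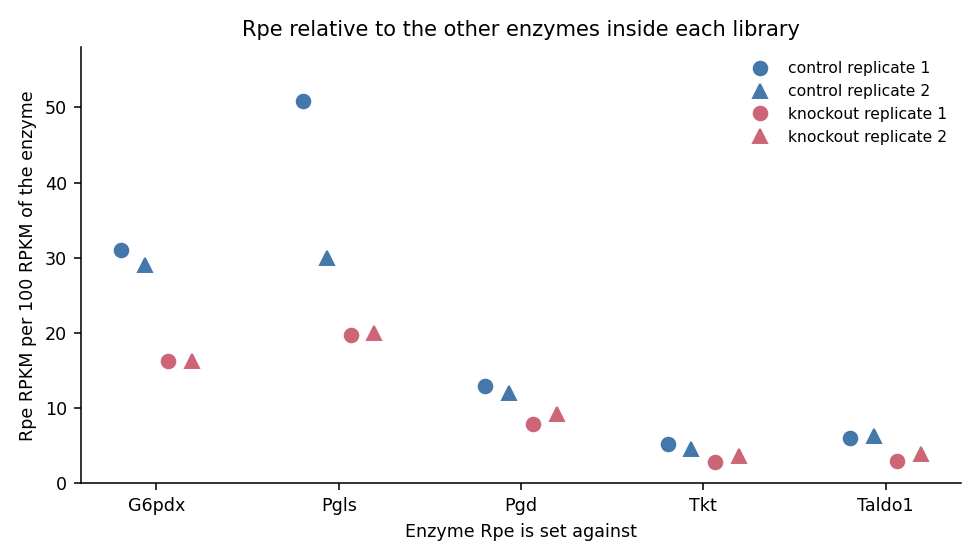
RPKM of Rpe for each 100 RPKM of another enzyme of the pathway (vertical axis, linear from 0), with 1 point per library, blue for control and red for knockout, circles for replicate 1 and triangles for replicate 2. The knockout points lie below the control points for each of the 5 enzymes, as with G6pdx, at 16.3 against 29.0 and 31.1. Rpe was chosen for its lower values in the knockout libraries, which favours this.

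The 3' end of Rpe overlaps that of Kansl1l, a gene on the opposite strand that encodes a KANSL1-like protein, over 558 bases. That stretch makes up 20.6% of the longest protein-coding Rpe transcript, and no source used here says whether the authors counted by strand. Kansl1l was at 0.945 and 0.756 RPKM for the controls and 1.48 and 1.84 RPKM for the knockouts, higher in both and so opposite to Rpe (log2 fold change 0.52, adjusted p = 0.319). On the other side the nearest listed gene was Pikfyve, a lipid kinase gene 1422135 bases away, with a log2 fold change of 0.30 (adjusted p = 0.485). Over all 6 enzymes, 11 of the 12 nearest listed genes on either side were tested and 0 were called, with log2 fold changes from -0.23 for the pseudogene Rpsa-ps12 beside Pgd to 0.59 for Slc27a1, a fatty acid transporter gene beside Pgls.

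Candidates for a like pattern were the 5960 genes that averaged 5 RPKM or more and have an established symbol, leaving out clones, predicted genes and pseudogenes. Those whose pattern over the 4 libraries lay nearest to that of Rpe were Lcn2, Hist2h2ac, Ddx21, Ltf and Cd177. Distances were taken between gene-centred log2(RPKM + 1) values and ran from 0.15 for Lcn2 to 0.30 for Cd177. Lcn2, Ltf and Cd177 are neutrophil genes, and Hist2h2ac encodes a histone H2A. Lcn2 stood at 391 and 326 RPKM for the controls and 172 and 170 RPKM for the knockouts. With 4 libraries such a ranking describes a shape and no more.

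Tkt, transketolase, moves carbon units between sugar phosphates and joins the pathway to glycolysis (ENSMUSG00000021957, chromosome 14, 30548359 to 30574720, plus strand). It was at 440 and 464 RPKM in the control libraries, at 383 RPKM in knockout replicate 1 and at 306 RPKM in knockout replicate 2. The groups did not overlap, and the knockout libraries lay further apart than the controls. The log2 fold change was -0.40 (SE 0.16, adjusted p = 0.180), and -0.77 after rescaling (adjusted p = 0.350). Without knockout replicate 1 it was -0.56, past the threshold (adjusted p = 0.0166), and 6381 genes rose and 526 fell in that fit. The adjusted p ranged from 0.0166 to 0.957 over the alternatives.

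Taldo1, transaldolase, completes the return of carbon to glycolysis with transketolase (ENSMUSG00000025503, chromosome 7, 141392199 to 141402968, plus strand). It stood at 386 and 342 RPKM for the controls and 353 and 280 RPKM for the knockouts. Knockout replicate 1 lay between the controls and knockout replicate 2 below both. The log2 fold change was -0.21 (SE 0.16, adjusted p = 0.453). Without knockout replicate 1, in a fit with 1 library in that group, it was -0.37. Over the alternatives the adjusted p ranged from 0.0416 to 0.957. The processed pseudogene Gm17823 is 94.7% identical to Taldo1 over 923 bases, and its own level was between 1.57 and 3.69 RPKM.

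**Figure D3:**
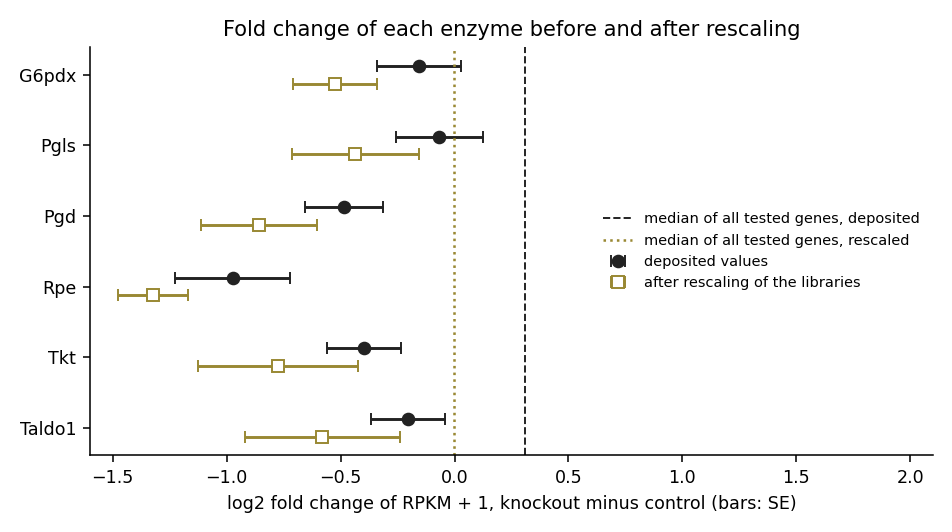
Log2 fold change of RPKM + 1 (horizontal axis, knockout minus control, bars are SE) for each measured enzyme on the deposited values (black circles) and after TMM-type rescaling (open squares). The dashed and dotted lines are the medians of all tested genes, 0.31 and 0.00, and each of the 6 enzymes lies below them on both scales.

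The DNA just before the start of 3 non-oxidative enzymes is shown because Rpe, Tkt and Taldo1 share a branch and differ in level and in size of the difference. Each stretch is the 250 bases before the RefSeq start, on the plus strand of GRCm38.p6, at chr1:66700581-66700830 for Rpe, chr14:30548881-30549130 for Tkt and chr7:141391910-141392159 for Taldo1. For Tkt the stretch lies inside the gene's GENCODE span, which starts at 30548359, before the RefSeq start used here. Capitals mark GGGCGG, the GC box read by factors of the Sp family, on either strand.
Rpe: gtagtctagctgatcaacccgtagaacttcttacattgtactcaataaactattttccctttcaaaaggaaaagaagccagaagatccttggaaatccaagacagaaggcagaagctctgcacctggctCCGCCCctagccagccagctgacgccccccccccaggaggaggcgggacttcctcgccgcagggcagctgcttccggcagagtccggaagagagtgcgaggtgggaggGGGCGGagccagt
Tkt: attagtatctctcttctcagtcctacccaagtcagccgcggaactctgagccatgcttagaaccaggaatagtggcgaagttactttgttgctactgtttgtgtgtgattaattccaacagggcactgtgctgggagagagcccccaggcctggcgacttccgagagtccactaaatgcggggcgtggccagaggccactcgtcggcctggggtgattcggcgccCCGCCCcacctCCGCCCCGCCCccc
Taldo1: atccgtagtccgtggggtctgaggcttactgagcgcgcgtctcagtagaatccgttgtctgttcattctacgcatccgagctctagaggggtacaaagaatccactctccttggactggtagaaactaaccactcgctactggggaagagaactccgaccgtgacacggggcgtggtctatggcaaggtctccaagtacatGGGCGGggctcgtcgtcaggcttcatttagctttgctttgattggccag

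GGGCGG was found in the 250 bases before the start of all 7 enzymes, Rpia included, and in 32.7% of 32851 RefSeq promoters, both strands searched. Rpe holds 2 matches, Tkt 3, of which a pair overlaps by a base, and Taldo1 1. TGACNNNGC, the core of the antioxidant response element read by NRF2, was found for 1 of the 7, G6pdx, and in 10.2% of all promoters. CACGTG, the E-box read by Myc, was found in 0 of the 7 and in 6.02% of all. CCAAT was found for 2 of the 7, Pgd and Taldo1, and in 33.8% of all. TTCCGG, a core of ETS factor sites, was found for 2 of the 7, Rpe and Rpia, and in 12.0% of all. Such matches describe the letters in this window, and no binding was measured.

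The genes around the pathway were taken as 6 lists. Their calls stand beside 0.86% of all tested genes called lower and 3.33% called higher. Glycolytic enzymes at the junctions with the pathway had 15 of 19 members tested, with 1 called lower, 0 higher and a median log2 fold change of 0.07. The called gene was Gpi1, glucose-6-phosphate isomerase, which competes with G6pdx for glucose 6-phosphate. It was at 536 and 556 RPKM for the controls and 441 and 337 RPKM for the knockouts, a fall of 0.50 on the log2 scale (log2 fold change -0.50, SE 0.16, adjusted p = 0.0456). Like Tkt, Gpi1 was lowest in knockout replicate 2, and the ratio of Gpi1 to Tkt was 1.22 and 1.20 for the controls and 1.15 and 1.10 for the knockouts. Of the 15 tested members 9 had a positive log2 fold change and 6 a negative one. Among those 6 were Hk3 and Gapdh (-0.45 each), Aldoa (-0.34) and Tpi1 (-0.27), named after their values were seen. Each lay lower without overlap, as did 7.38% of all tested genes, and limma called none of them (adjusted p from 0.166 for Hk3 to 0.365 for Tpi1).

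Enzymes and complexes that spend NADPH had 18 of 18 members tested, with 1 called lower, 0 higher and a median of 0.17. The called gene was Gsr, glutathione reductase, which uses NADPH to regenerate reduced glutathione. It fell from 203 and 198 RPKM in the control libraries to 155 and 112 RPKM in the knockout libraries (log2 fold change -0.60, SE 0.17, adjusted p = 0.0149). Of the phagocyte NADPH oxidase, 4 subunits had log2 fold changes of -0.59 for Cybb, -0.55 for Ncf1, -0.40 for Cyba and -0.34 for Ncf4, a set named here after its values were seen. None of these 4 was called by limma, with adjusted p-values from 0.0609 for Ncf1 to 0.335 for Ncf4. Their knockout libraries lay lower without overlap, as did those of 7.38% of all tested genes. Gpi1 and Gsr were called on the deposited values, where limma took the spread pooled over genes of like level. After TMM-type rescaling, where a gene's own spread also counted, limma called 0 genes. The rescaled log2 fold changes were lower still, with wider errors, at -0.88 (SE 0.38) for Gpi1 and -0.97 (SE 0.33) for Gsr.

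The side branches of the pathway had 11 of 14 members tested, with 0 called and a median of 0.35. All 11 values were positive on the deposited scale, and the median was 0.00 after rescaling. The smallest p-values belonged to Idnk, a gluconate kinase that feeds 6-phosphogluconate into the oxidative branch (0.61, adjusted p = 0.2496), and Shpk, the sedoheptulose kinase (0.66, adjusted p = 0.282). H6pd, which carries out the first steps of the oxidative branch inside the endoplasmic reticulum, was at 6.29 and 7.07 RPKM for the controls and 6.94 and 8.04 RPKM for the knockouts, with overlapping groups. Prps1, which makes the nucleotide precursor PRPP from ribose 5-phosphate, was at 94.7 and 94.8 RPKM and at 95.1 and 106 RPKM, and its log2 fold change of 0.08 turned to -0.29 after rescaling.

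Other sources of NADPH had 9 of 13 members tested, with 0 called and a median of 0.23. Their smallest p-values belonged to Aldh1l1, a folate enzyme that yields NADPH (0.71, adjusted p = 0.251), and Mthfd1, another folate enzyme (0.31, adjusted p = 0.399, and -0.06 after rescaling). Idh2, the mitochondrial isocitrate dehydrogenase that makes NADPH, was at 284 and 296 RPKM for the controls and 267 and 264 RPKM for the knockouts (log2 fold change -0.13, adjusted p = 0.604). Genes of nucleotide and NAD synthesis, pathways that draw on PRPP at some step, had 17 of 17 members tested, with 0 called and a median of 0.07. The smallest p-values there were those of Naprt, which uses PRPP to make NAD (0.67, adjusted p = 0.245), and Cad, which opens pyrimidine synthesis (0.41, adjusted p = 0.412). Regulators had 14 of 15 members tested, with 0 called and a median of 0.33, led by Sirt2, a deacetylase (0.53, adjusted p = 0.230), and Nfe2l2, which encodes NRF2 (0.40, adjusted p = 0.305).

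**Figure D4:**
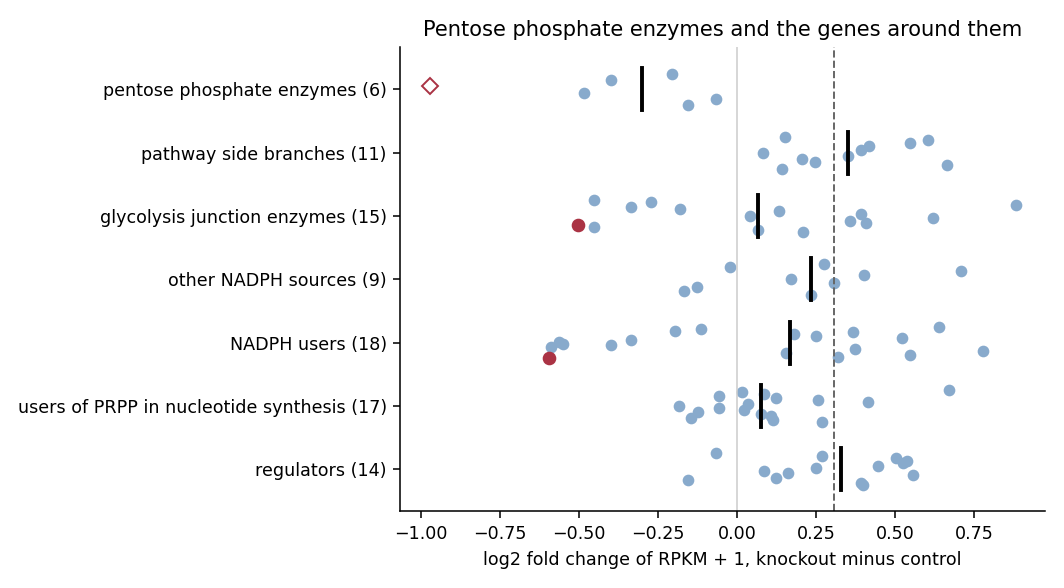
Log2 fold change of RPKM + 1 (horizontal axis, knockout minus control) of the 6 measured pentose phosphate enzymes and of the tested members of the 6 lists around the pathway, with 1 point per gene, counts in brackets, black bars at list medians and a dashed line at the median of all tested genes, 0.31. Filled red points are called genes, Gpi1 and Gsr, and the open diamond is Rpe, which was chosen for its difference; the 6 pathway enzymes lie left of 0 and the 11 side branch genes right of it on the deposited scale, where the side branch median of 0.35 became 0.00 after rescaling.

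Markers of other cell types moved between the groups beside these values. Over all tested genes 3.33% were called higher and 0.86% lower. The primary granule list, 6 of 6 members tested with 5 called lower, summed to 45047 and 47315 RPKM for the controls and 33577 and 22285 RPKM for the knockouts. The neutrophil and monocyte list, 13 of 13 tested with 11 called lower, summed to 26921 and 26864 RPKM, then to 17126 and 10631 RPKM. Knockout replicate 2 was the lowest library for both lists, as it was for Pgd, Tkt, Taldo1 and Gpi1. On the deposited values Rpe, G6pdx and Pgls were slightly higher in knockout replicate 2 than in replicate 1. After TMM-type rescaling they were lower in replicate 2, with Rpe at 10.9 RPKM in replicate 1 and 8.26 in replicate 2. G6pdx was then at 66.8 and 50.6 RPKM, and Pgls at 55.1 and 41.2 RPKM. The part of the cells that these 2 lists mark in the values of the pathway enzymes was not tested.

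Other lists also differed. Stem cell genes had 3 of 9 tested members called higher and summed to 185 and 231 RPKM for the controls and 292 and 365 RPKM for the knockouts. Of 11 osteoblast and stroma genes listed, 9 were tested and all 9 were called higher. Those 9 summed to 451 and 262 RPKM, then 6350 and 1599 RPKM. The erythroid list had 1 of 9 tested members called lower. The B cell list had 0 of 3 tested members called, with 7 listed, and the endothelium list 0 of 3, with 5 listed. Of 6 T and NK cell genes listed only 1 was tested, Nkg7. It was called lower, and alone it cannot stand for those cells. The part of these lists in the result was not tested either.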

How the data were processed

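RNA was measured in 4 Smart-Seq libraries, 2 control and 2 knockout, grouped by their titles. The authors deposited 1 table with 1 RPKM value per gene and library; the unit was identified here from the values. Value times the length of the longest GENCODE M21 transcript gave whole reads, within 0.1, for 99.4% of values in each library, with 9 IDs of no known length left out. A gene without reads is written 0.001, and the lowest maximum over the libraries was 1.0063 RPKM, so genes low in every library are not covered. Reads were placed on mm10, a build named in the submitters' processing notes. No source used here gives the aligner, the counter or the handling of strand. The replicates differed by more than the counting error of independent reads, at 48.5 (control pair) and 150.5 (knockout pair) chi-square units for each degree of freedom. Reads without molecular identifiers are not independent molecules, and noise in the sampling of molecules was not tested.

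Genes that averaged 1 RPKM or more were tested with limma 3.58.1 (R 4.3.3) on log2(RPKM + 1) with a mean-variance trend and genotype as the only term. This leaves 2 residual degrees of freedom. The prior degrees of freedom were infinite, so each SE is the trend's value at that gene's level and not the gene's own spread. For a gene with widely spread replicates p-values are therefore too small. After TMM-type rescaling the prior degrees of freedom were 3.68. TMM-type rescaling used trimmed mean log ratios between libraries. Near copies were searched with BLAST 2.17.0, at 90% identity over 200 bases or more. Promoter sequences are from RefSeq, GRCm38.p6, where all 7 symbols matched.

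The members and lists were chosen with earlier results of these data known. Named beside the members were the called genes of each list, or the 2 of smallest p where none was called, the nearest listed genes beside each member, and the 5 genes nearest to Rpe in pattern. Idh2, H6pd, Prps1, Hk3, Gapdh, Aldoa, Tpi1 and the 4 oxidase subunits were chosen after their values were seen. A further list member is not reported here.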

Additional observations from a re-analysis of the deposited data

How the results depend on the processing

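All 6 enzymes kept a negative log2 fold change under each of 14 alternatives, except Pgls, which stood at -0.39 without control replicate 1 and turned to 0.26 without control replicate 2. Under TMM-type rescaling, median-of-ratios rescaling and quantile normalization limma called 0 genes higher, 0 lower and 0 enzymes, with 917, 903 and 869 genes higher and 910, 928 and 879 lower at an unadjusted p under 0.05. Counts of enzymes below include Rpe, which its choice fixed, and are followed by the count over the 5 others. Voom called 36 genes higher, 13 lower and 1 enzyme (0 of the 5) on rescaled reads. On reads that were not rescaled it called 367 genes higher, 89 lower and 2 enzymes (1 of the 5, Pgd). Without the mean-variance trend 52 genes were called lower. The replicate numbers were not taken as pairs, since deviations of same-numbered libraries correlated at 0.07 and the labels name no shared animal or batch. With the replicate number as a block 175 genes were higher, 64 lower and 0 enzymes called; with rescaling beside the block 312 genes were higher, 370 lower and 1 enzyme called (0 of the 5). Leaving out a library gave 27 to 6381 genes higher, 5 to 526 lower and 0 to 4 enzymes lower (0 to 3 of the 5, the 3 being Pgd, Tkt and Taldo1 without knockout replicate 1). A fit with 1 library in a group assumes that it varies like the other group. The cause of these shifts was not tested. The lowest read count behind an enzyme's value was 1261. Dividing by the longest protein-coding transcript was chosen after seeing the data.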
